A study of Mus musculus with 48 samples.

Results

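The Hox protein genes of the mouse were followed along the gut in sorted enteroendocrine cells. Members were taken by name, as each gene whose symbol was Hoxa, Hoxb, Hoxc or Hoxd followed by a number, which gave 39 of the 53465 genes in the count table: 11 in the HoxA cluster on chromosome 6, 10 in HoxB on chromosome 11, 9 in HoxC on chromosome 15 and 9 in HoxD on chromosome 2. Cells were purified by flow cytometry from Neurod1-cre-eYFP mice, in which Cre driven by Neurod1 sequences switches on a lasting yellow fluorescent label, so that the sort collects cells that have expressed Neurod1 at some stage. These were lean males given standard chow and fasted overnight before a glucose challenge. Around surgery all received a liquid diet. They had undergone vertical sleeve gastrectomy (VSG, in which most of the stomach is removed), or a sham operation followed by free feeding (S_al) or by matching of body weight to the VSG animals (S_wm). The top 5 cm of the small intestine (duodenum), its bottom 15 cm (ileum) and the colon with rectum were sequenced as separate RNA libraries, 48 in all from 17 mice, of which 15 gave all 3 regions, with 16 libraries per region and 5 or 6 for each of the 9 combinations of region and surgery.

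Hox genes encode homeodomain transcription factors that give cells an address along the head to tail axis of the embryo. Within a cluster they lie in order of paralogue number, and low-numbered genes are known to be switched on early and towards the head, high-numbered ones late and towards the tail. In the gut, group 13 genes are known for their role in the hindgut, and adult epithelium is known to retain part of the embryonic pattern. Hox proteins bind DNA together with cofactors of the Pbx and Meis families, and the related Cdx proteins are known to act upstream of many Hox genes in the intestine.

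Sequencing gave 4648651 to 17182463 assigned counts per library, with a median of 6713018. The enteroendocrine markers Neurod1, Chga, Chgb, Scg2, Pax6, Insm1, Nkx2-2 and Isl1 were present in each region, with a median summed level of 54384 CPM (counts scaled to library size) in duodenum, 42346 in ileum and 46621 in colon. Neurod1, which drove the label, averaged 659.7 CPM in duodenum, 411.8 in ileum and 255.1 in colon. By the edgeR test described below, 5 of the 8 markers were lower in ileum than duodenum and 0 higher, beside 16.6% and 17.2% of all genes. In colon against duodenum 5 were lower and 1 higher, beside 28.3% and 26.8%, with a median log2 fold change of -1.21 over the 8. Gut stromal cells are a known source of Hox transcripts, so 8 stromal markers were counted: their summed median was 0.502 CPM in duodenum, 1.56 in ileum and 2.15 in colon, with no library above 7.93 CPM, and Lum had no count in any duodenum library. Summed over the 39 genes, Hox RNA averaged 15.8 ± 4.62 CPM (SD, n = 16) in duodenum, 99.4 ± 36.9 in ileum and 580.7 ± 77.5 in colon. Enterocyte markers had a median sum of 6107 CPM in duodenum, 7757 in ileum and 525.7 in colon, and colonocyte markers 442.3, 631.5 and 3345. Goblet and Paneth cell markers had medians of 3571, 6081 and 8184.5 CPM in duodenum, ileum and colon, immune markers 3.18, 5.78 and 3.98, and enteric neuron and glia markers 177.8, 110.5 and 94.8. The part of these cells in the Hox levels was not tested. The second library index also followed region, with D502 in 12 duodenum libraries only and D504 in 11 colon libraries and 1 ileum library. One duodenum library, from S_wm mouse 27, held 42071 CPM of enterocyte markers against at most 12810 in the other duodenum libraries. It was kept, and leaving it out left the number of Hox calls in the region comparisons as it was. The ileum and colon libraries of S_al mouse 12 carried sample codes that crossed between tissues. Both were closest in Hox profile to the mean of the tissue named in their label.

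The 250 bases before the transcription start are shown for 4 members, chosen because their levels marked the main patterns below: Hoxa9 was lowest in ileum, Hoxb8 rose at the ileum, and Hoxa13 and Hoxd13 were highest in colon. Sequences are from RefSeq (build GRCm38.p6), read 5′ to 3′ on the strand of the gene, in lower case with matches to 2 motifs in capitals. The first motif, CNATAAA, is of the type bound by Cdx proteins, and the second, TGATNNAT, of the type bound by Pbx with Hox proteins. Both strands were searched. The Hoxa9 window, chr6:52227371-52227620 on the minus strand, lies in an intron of a longer Hoxa9 transcript. The Hoxb8 window, chr11:96281655-96281904 on the plus strand, the Hoxa13 window, chr6:52260881-52261130 on the minus strand, and the Hoxd13 window, chr2:74667975-74668224 on the plus strand, lie outside annotated genes.
Hoxa9: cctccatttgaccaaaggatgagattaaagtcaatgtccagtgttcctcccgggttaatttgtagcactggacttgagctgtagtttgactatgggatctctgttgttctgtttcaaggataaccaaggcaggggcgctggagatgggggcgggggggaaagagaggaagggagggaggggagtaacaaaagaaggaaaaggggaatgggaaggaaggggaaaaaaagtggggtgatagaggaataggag
Hoxb8: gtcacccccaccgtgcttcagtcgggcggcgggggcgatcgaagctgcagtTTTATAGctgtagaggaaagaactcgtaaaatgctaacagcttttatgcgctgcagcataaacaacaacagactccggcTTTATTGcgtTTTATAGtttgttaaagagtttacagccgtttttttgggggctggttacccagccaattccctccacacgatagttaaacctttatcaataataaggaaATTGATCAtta
Hoxa13: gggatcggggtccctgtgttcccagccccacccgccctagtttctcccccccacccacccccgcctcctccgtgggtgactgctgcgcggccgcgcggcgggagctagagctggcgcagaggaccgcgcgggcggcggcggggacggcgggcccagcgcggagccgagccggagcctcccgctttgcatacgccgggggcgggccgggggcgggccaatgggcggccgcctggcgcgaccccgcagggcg
Hoxd13: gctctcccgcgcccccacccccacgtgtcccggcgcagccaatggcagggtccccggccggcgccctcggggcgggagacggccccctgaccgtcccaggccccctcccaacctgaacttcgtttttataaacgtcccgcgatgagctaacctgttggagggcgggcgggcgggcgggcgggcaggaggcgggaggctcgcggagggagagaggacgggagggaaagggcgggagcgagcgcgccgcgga
Hoxb8 held 3 matches to CNATAAA, all on the opposite strand, beginning 199, 120 and 110 bases before the start, and 1 match to TGATNNAT beginning 11 bases before it. The Hoxa9, Hoxa13 and Hoxd13 windows held neither motif in these letters. RefSeq gave windows for 22 of the 39 Hox genes, 24 windows in all because Hoxa10 and Hoxd11 had a pair each. CNATAAA was found in 8.33% of these 24 and in 9.81% of all 32851 promoter windows, and TGATNNAT in 16.7% and 7.68%. The Hox windows were rich in CpG, with a median of 12.5 per window against 6 over all promoters. Hoxa13 held 35 and Hoxd13 31, whereas Hoxa9 held 3.

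The clusters differed in how much RNA they gave. HoxB accounted for 57.1% of Hox RNA in duodenum, 91.4% in ileum and 70.7% in colon. HoxA gave 38.7%, 4.40% and 24.7% in the same order, and HoxC and HoxD each gave less than 5% of it in every region. The HoxA sum was 6.13 ± 2.32 CPM (SD, n = 16) in duodenum, 4.38 ± 1.47 in ileum and 143.2 ± 25.7 in colon, so HoxA RNA was no more abundant in ileum than in duodenum. HoxB, by contrast, averaged 9.04 ± 3.57, 90.8 ± 36.8 and 410.4 ± 55.9 CPM. HoxD was at 0.332, 1.61 and 24.1 CPM, and HoxC stayed at 0.336, 2.61 and 3.03 CPM.

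**Figure D1:**
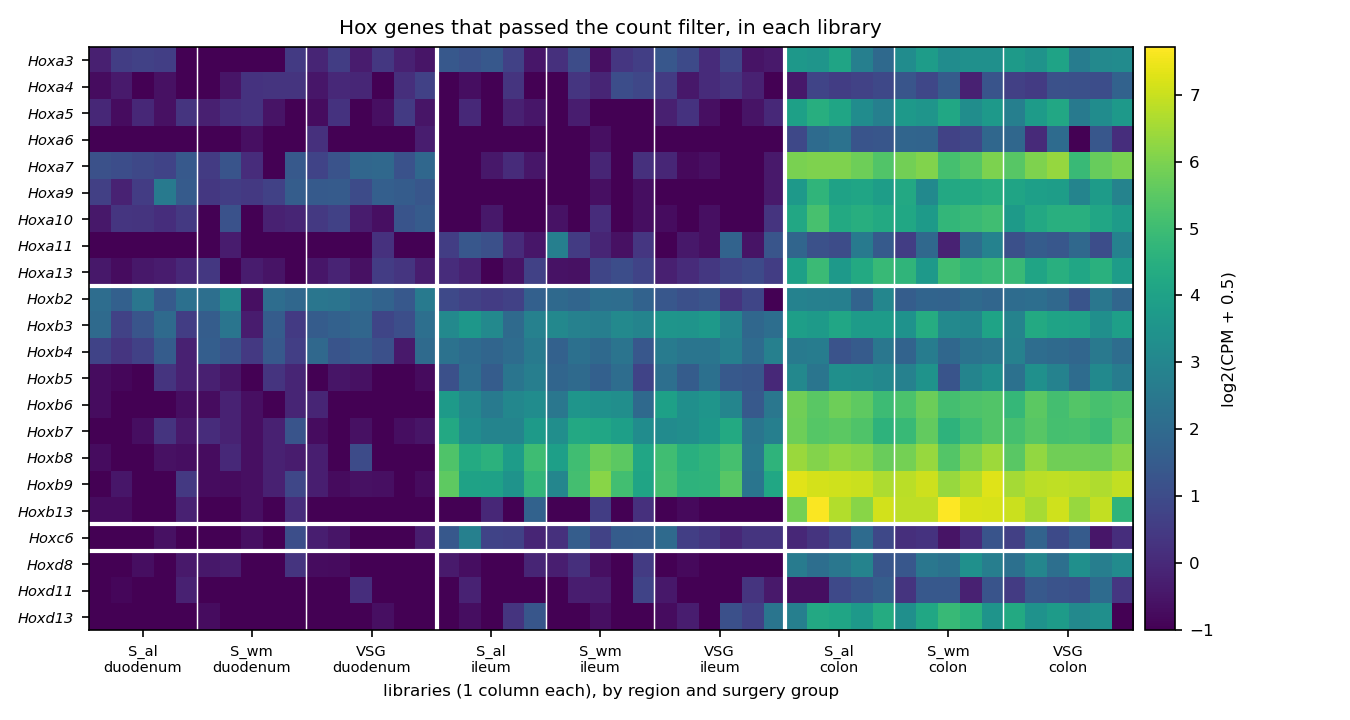
Each column is a library, ordered by region and then surgery group, and each row is one of the 22 Hox genes that passed the low-count filter; colour gives log2(CPM + 0.5). The HoxB genes from Hoxb5 to Hoxb9 brighten at the ileum, while most HoxA genes, Hoxb13 and the HoxD genes brighten only in the colon columns.

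After the filter on low counts 22 Hox genes could be tested: 9 of HoxA, 9 of HoxB, Hoxc6 and 3 of HoxD. Comparisons used edgeR's quasi-likelihood test with Benjamini-Hochberg adjustment over 15126 genes. Between colon and duodenum 21 of the 22 differed, all higher in colon, where 55% of all genes tested passed, 26.8% as higher and 28.3% as lower. Colon against ileum gave 20, again all higher in colon, beside 49.2% of all genes, 23.8% higher and 25.4% lower. Ileum against duodenum gave 15, of which 11 were higher and 4 lower in ileum, beside 33.8% of all genes, 17.2% higher and 16.6% lower. The filter was set over all 48 libraries, so some genes entered a comparison through colon counts alone: with only the duodenum and ileum libraries, 13 Hox genes were tested and all 13 passed, Hoxa10 and Hoxa13 being among those no longer tested. Median log2 fold changes over the 22 were 5.11, 2.57 and 1.47 in these comparisons, against -0.01, -0.01 and 0.0045 over all genes. The share of all genes called in that reduced set is not reported here. Genes that entered through colon counts alone could scarcely come out lower in colon. Likewise, genes that entered the reduced set through ileum counts could scarcely come out lower in ileum, such as Hoxb6 with 15 counts over the duodenum libraries. The direction of the calls, their medians and the counts without overlap given below were thus partly set by the filter, with the 13 of 13 included. In bulk RNA, more cells expressing a gene and more RNA per cell cannot be told apart.

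Ordered by their calls over both steps, 9 genes were higher in ileum than duodenum and higher again in colon: Hoxa3, Hoxa11, Hoxa13, Hoxb3, Hoxb5, Hoxb6, Hoxb7, Hoxb8 and Hoxb9. Another 7 did not pass between ileum and duodenum and were higher in colon than ileum: Hoxa4, Hoxa5, Hoxa6, Hoxb13, Hoxd8, Hoxd11 and Hoxd13. Lower in ileum than in either neighbour's libraries were 4 genes, Hoxa7, Hoxa9, Hoxa10 and Hoxb2. These calls average over the surgery groups, and in S_wm mean Hoxb2 was higher in ileum than in colon. The remaining 2, Hoxb4 and Hoxc6, were higher in ileum than duodenum with no call between ileum and colon. Every colon library lay above every duodenum library for 14 genes, beside 4.76% of all genes tested. For colon above ileum the count was 11, beside 3.68% of all genes. Every ileum library lay above every duodenum library for 4 genes, Hoxb6 to Hoxb9, beside 0.502% of all genes, and below for 1, Hoxa9, beside 0.959%.

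**Figure D2:**
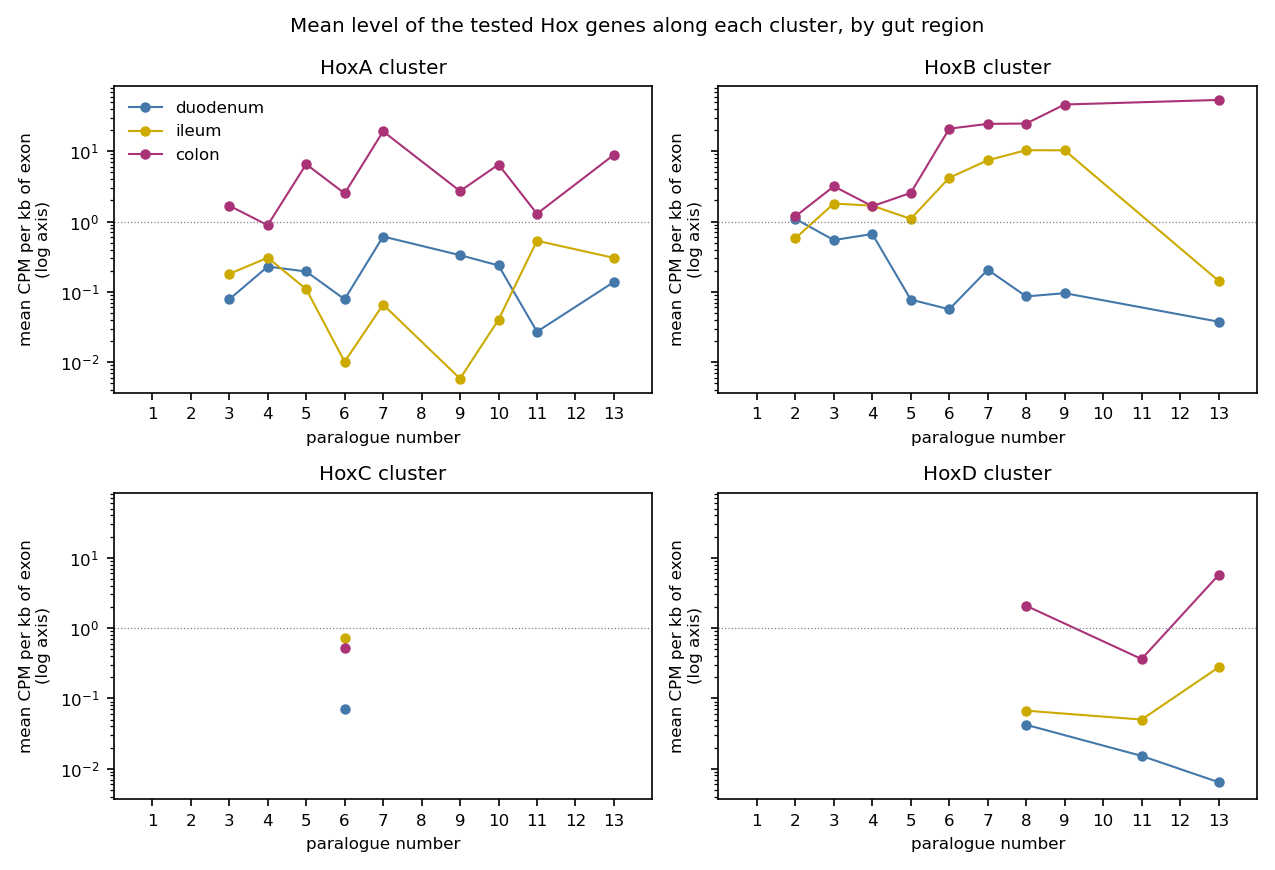
Mean level of the 22 tested Hox genes in each region, in CPM per kb of exon on a log axis, against paralogue number, with 1 panel per cluster; the dotted line marks 1 CPM per kb. In HoxB the ileum line lies between duodenum and colon at groups 5 to 9 and falls near the duodenum line at group 13, while in HoxA the ileum line lies below the duodenum line at groups 5 to 10.

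Levels of different genes were compared per kb of exon. At or over 1 CPM per kb the duodenum held 1 Hox gene, Hoxb2, a gene known from hindbrain segments, at 1.09 CPM per kb. The ileum held 7, all of HoxB, from Hoxb3 to Hoxb9. The colon held 19, of which 8 were in HoxA, 9 in HoxB and 2, Hoxd8 and Hoxd13, in HoxD. HoxC reached this level nowhere. The counts rest on the level chosen: at 0.5 CPM per kb they were 4, 10 and 21, and at 2 CPM per kb 0, 4 and 15. They rest also on the length used: per kb of exon not shared with other genes, Hoxb3 joined Hoxb2 in duodenum and Hoxa4 was added in colon. The leading HoxA gene was Hoxa7 in duodenum (0.613 CPM per kb) and in colon (19.1), but Hoxa11 in ileum (0.533). In HoxB the lead passed from Hoxb2 in duodenum to Hoxb8 in ileum (10.3 CPM per kb) and Hoxb13 in colon (53.6). Hoxb9 followed, with 10.3 in ileum and 46.2 in colon, differences from the leader that were smaller than the SD between libraries. Hoxc6 led HoxC in each region, at 0.0711, 0.720 and 0.520 CPM per kb. In HoxD, Hoxd13 led in ileum (0.276) and colon (5.66), and Hoxd9 in duodenum (0.0463), with 0 to 0.970 CPM (median 0) on 12 counts over 16 libraries.

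The middle of HoxB marked the step from duodenum to ileum. Hoxb8 was 0 to 1.5 CPM in the 16 duodenum libraries (median 0.120), 5.12 to 53.0 in ileum (median 25.2) and 41.1 to 85.1 in colon (median 65.5). Duodenum and ileum did not overlap, while ileum and colon did. The log2 fold change was 7.18 ± 0.35 (SE) for ileum against duodenum (adjusted p = 1.19e-20) and 1.27 ± 0.20 for colon against ileum (adjusted p = 1.08e-06), and the colon was the higher in 15 of 16 mice with both. Hoxb9 ran from 0 to 1.32 CPM in duodenum, 4.76 to 70.6 in ileum and 81.2 to 158.7 in colon, with medians of 0.128, 24.7 and 114.4. None of the 3 ranges overlapped. It rose by 6.76 ± 0.38 on the log2 scale at the ileum (adjusted p = 4.48e-18) and by a further 2.17 ± 0.23 in colon (adjusted p = 1.38e-10).

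Hoxb6 and Hoxb7 showed the same order. For Hoxb6 the duodenum held 0 to 0.441 CPM (median 0), the ileum 2.19 to 15.1 (median 8.32) and the colon 27.4 to 55.5 (median 39.7), again with no overlap. Its log2 fold change was 6.21 ± 0.32 for ileum against duodenum (adjusted p = 1.03e-20) and 2.31 ± 0.18 for colon against ileum (adjusted p = 5.08e-15). Hoxb7 averaged 0.319 ± 0.476 (SD), 11.5 ± 4.81 and 37.8 ± 8.71 CPM. Hoxb5, on far less RNA, averaged 0.216, 3.04 and 7.11 CPM and passed at both steps. With the second index as a covariate 13, 17 and 20 genes passed for ileum against duodenum, colon against duodenum and colon against ileum. Those lost were Hoxa13 and Hoxb2 in the first and Hoxa4, Hoxa6, Hoxc6 and Hoxd11 in the second. The shares of all genes called with this covariate are not reported here.

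Towards the low-numbered end of HoxB the regions drew together. Hoxb2 held 0.145 to 8.09 CPM in duodenum (median 3.85), 0 to 3.97 in ileum (median 1.81) and 1.89 to 7.48 in colon (median 3.46), and the 3 ranges overlapped. It was lower in ileum than duodenum by a log2 fold change of -1.0 ± 0.26 (adjusted p = 0.00181), higher in colon than ileum by 1.07 ± 0.26 (adjusted p = 5.60e-04), and did not differ detectably between colon and duodenum (log2 fold change 0.06 ± 0.25, adjusted p = 0.846). Of the mice with both regions, 9 of 15 had more Hoxb2 in duodenum than colon. The low ileum level was not shared by all surgery groups. Means in duodenum, ileum and colon were 3.57, 1.46 and 5.97 CPM in S_al and 3.95, 1.29 and 3.53 in VSG. In S_wm they were 3.88, 3.45 and 3.01 CPM, with ileum above colon. Every S_wm ileum library (2.88 to 3.97 CPM) lay above those of S_al (0.957 to 2.65) and VSG (0 to 2.09). Hoxb4 held 4.31 ± 1.25 CPM (SD) in ileum and 4.24 ± 1.37 in colon, against 1.71 ± 0.982 in duodenum. Hoxb3 averaged 2.32, 7.66 and 13.5 CPM, but 52.9% of its exon bases are shared with other annotated genes, and counts from such genes could not be separated. Hoxb1, the most head-like member, had no count in duodenum, 3 in ileum and 15 in colon.

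Hoxb13, known from the tail end of the embryo and the prostate, was almost confined to the colon libraries. It held 0 to 0.588 CPM in duodenum (median 0), 0 to 2.87 in ileum (median 0) and 24.7 to 209.0 in colon (median 117.4). Each colon library lay above every library of the small intestine. Against duodenum the log2 fold change was 10.70 ± 0.44 (adjusted p = 4.14e-22) and against ileum 9.18 ± 0.40 (adjusted p = 6.43e-21), the largest among the 22 in both comparisons. Between ileum and duodenum it did not pass (log2 fold change 1.52 ± 1.30, adjusted p = 0.397).

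**Figure D3:**
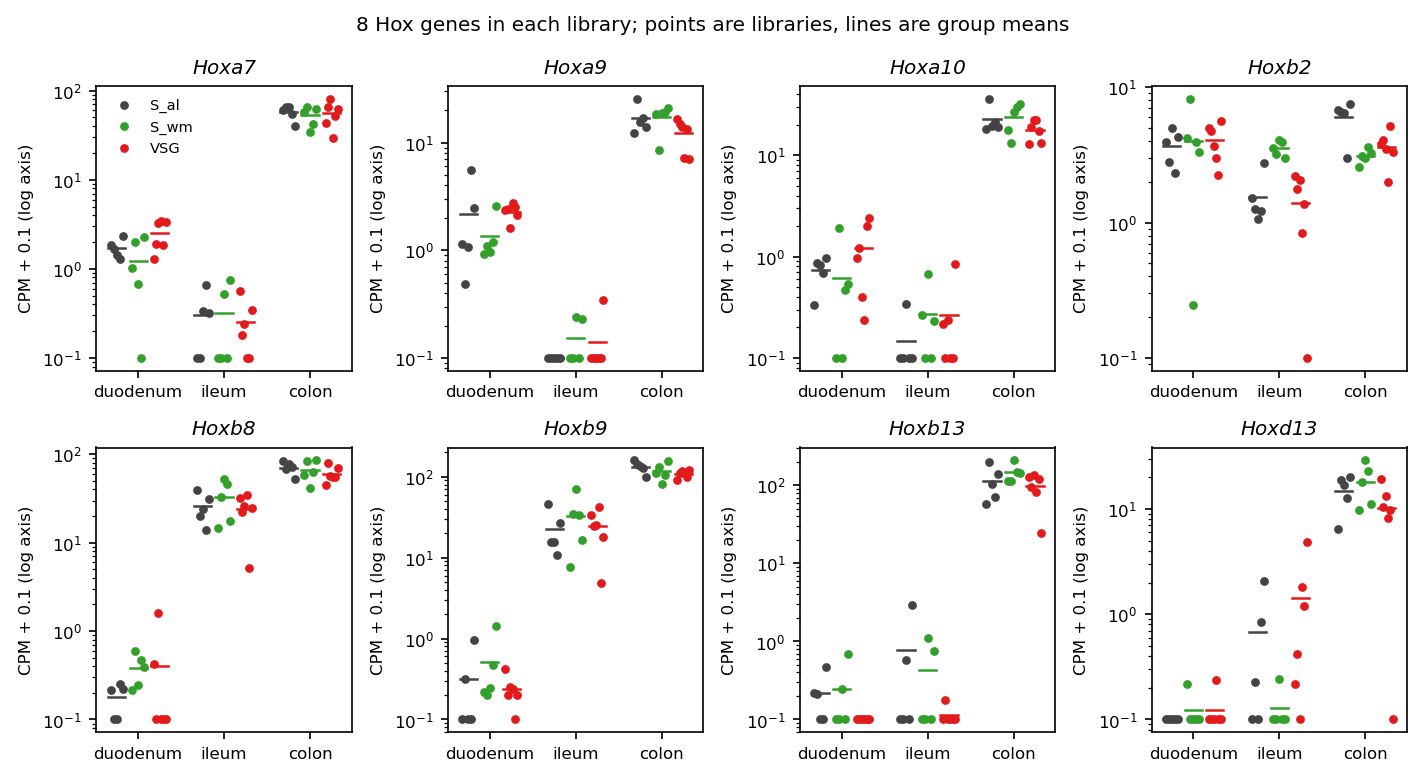
CPM + 0.1 on a log axis for 8 Hox genes, with 1 point per library, grouped by region and coloured by surgery group; short lines are group means. Hoxa7, Hoxa9 and Hoxa10 dip in ileum, Hoxb8 and Hoxb9 climb in steps, and Hoxb13 and Hoxd13 stand high in colon. The surgery groups overlap within each region except for Hoxb2 in ileum, where every S_wm library lies above those of S_al and VSG.

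The middle of HoxA followed a different course, with its lowest values in ileum. Hoxa9, known for its part in blood cell formation, held 0.384 to 5.51 CPM in duodenum (median 1.76), 0 to 0.248 in ileum (median 0) and 7.01 to 25.3 in colon (median 15.2). Every duodenum library had counts, whereas 13 of 16 ileum libraries had none. Summed over libraries the counts were 238, 3 and 1645. In CPM the duodenum exceeded the ileum 59.9 times (95% exact interval of counting error 20.2 to 292.5; edgeR adjusted p = 1.34e-12), in 15 of 15 mice, and the colon exceeded the ileum 539.9 times (184.4 to 2621; adjusted p = 6.70e-22).

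Hoxa7 was the most abundant member of HoxA in colon. Its 16 duodenum libraries held 0 to 3.33 CPM (median 1.76), the ileum 0 to 0.654 (median 0.109) and the colon 29.6 to 80.6 (median 59.6). Ileum was lower than duodenum in 14 of 15 mice, with a log2 fold change of -3.02 ± 0.37 (adjusted p = 6.40e-09), and colon was higher than ileum by 8.05 ± 0.29 (adjusted p = 8.39e-27). Hoxa10, a gene known from the uterus and hindlimb, held 0 to 2.32 CPM in duodenum (median 0.663), 0 to 0.744 in ileum (median 0) and 12.9 to 35.7 in colon (median 19.1). Its log2 fold change was -2.77 ± 0.53 for ileum against duodenum (adjusted p = 4.40e-05), with 13 of 15 mice lower in ileum, although the gene passed the filter only with the colon libraries included, and 7.56 ± 0.41 for colon against ileum (adjusted p = 4.92e-21). Duodenum levels of these 3 genes rested on 247, 238 and 116 counts summed over 16 libraries for Hoxa7, Hoxa9 and Hoxa10.

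Their neighbours on either side did not all dip. Hoxa11, known from the forearm and uterus, lies next to Hoxa10, and held 0 to 0.693 CPM in duodenum (median 0), 0 to 6.25 in ileum (median 0.673) and 0.384 to 6.81 in colon (median 2.33). Ileum was higher than duodenum in 14 of 15 mice by a log2 fold change of 4.34 ± 0.71 (adjusted p = 4.24e-06), and colon was above ileum by 1.34 ± 0.50 (adjusted p = 0.0241), a call lost when any of mice 21, 24, 29 or 31 was left out. Exon bases shared with other genes, among them the antisense Hoxa11os, made up 35.0% of Hoxa11. Hoxa5, a gene of the lung and thorax, averaged 0.366 ± 0.294 (SD), 0.206 ± 0.230 and 12.3 ± 4.72 CPM. The fall at the ileum did not pass (log2 fold change -0.99 ± 0.48, adjusted p = 0.105). Hoxa6 rested on 10, 1 and 247 counts summed over the libraries of duodenum, ileum and colon, and its colon level exceeded the ileum 243.2 times (exact interval 43.2 to 9644). Hoxa3 averaged 0.470, 1.08 and 10.1 CPM and Hoxa4 0.365, 0.488 and 1.41 CPM.

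Group 13 forms the tail end of each cluster. Hoxa13, known with Hoxd13 from the digits and hindgut, held 0 to 0.970 CPM in duodenum (median 0.266), 0 to 1.60 in ileum (median 0.701) and 12.2 to 32.2 in colon (median 22.1). The colon stood clear of both other regions. Its log2 fold change was 6.06 ± 0.29 against duodenum (adjusted p = 3.27e-23) and 4.95 ± 0.28 against ileum (adjusted p = 1.04e-20). Ileum against duodenum gave 1.11 ± 0.37 (adjusted p = 0.0178), a call lost without mouse 29 and under limma voom with a random replicate block for mouse, although the log2 fold change there was 1.115.

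Hoxd13 had 2 counts in all of duodenum, 52 in ileum and 1466 in colon. It held 0 to 0.139 CPM in duodenum (median 0), 0 to 4.71 in ileum (median 0.122) and 0 to 28.8 in colon (median 12.8). The colon library at 0 came from VSG mouse 30, and the other 15 held 6.33 CPM or more. Colon exceeded duodenum 956.1 times in CPM (exact interval of counting error 264.2 to 7902; adjusted p = 2.20e-15), and its log2 fold change against ileum was 5.52 ± 0.52 (adjusted p = 5.31e-12). Ileum against duodenum did not pass (adjusted p = 0.0845), on a ratio of 34.4 (9.07 to 291.9). Hoxc13, the group 13 gene of HoxC, had 1, 0 and 5 counts in the 3 regions, too few for a test.

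The other HoxD genes were low. Hoxd8 averaged 0.115 ± 0.195 (SD), 0.183 ± 0.272 and 5.69 ± 2.37 CPM, and rose in colon against ileum by 5.24 ± 0.43 on the log2 scale (adjusted p = 1.03e-14). Hoxd11 averaged 0.0640, 0.210 and 1.53 CPM and passed for colon against both regions. Below the filter, Hoxd10 had 0, 1 and 86 counts and Hoxd12 0, 3 and 51, so that colon exceeded duodenum at least 37.4-fold for Hoxd10 and at least 22.2-fold for Hoxd12, taking 3 counts over the 16 duodenum libraries as the floor. Hoxd4 had 0, 15 and 100 counts, at least 43.5-fold, but shared 52.3% of its exon bases with neighbours such as Hoxd3. Hoxd9 had 12, 20 and 43 counts, Hoxd1 5, 23 and 21, and Hoxd3 1, 0 and 8.

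HoxC was close to silent throughout. Hoxc6 alone passed the filter, with 0 to 1.62 CPM in duodenum (median 0), 0.442 to 6.39 in ileum (median 1.13) and 0.192 to 3.65 in colon (median 0.906). All 3 ranges overlapped. It was higher in ileum than duodenum in 15 of 15 mice (log2 fold change 3.74 ± 0.56, adjusted p = 4.35e-07), and the ileum and colon values did not differ detectably (log2 fold change -0.53 ± 0.44, adjusted p = 0.337). Hoxc4 had 9, 19 and 56 counts and Hoxc5 2, 21 and 38. Of the rest, Hoxc8 had 1, 15 and 15, Hoxc9 4, 18 and 9, Hoxc10 3, 0 and 8, Hoxc11 4, 3 and 9, and Hoxc12 0, 14 and 17. These genes were below the filter and not tested in the main comparison. Without the filter, Hoxc5 and Hoxc8 passed for ileum against duodenum, Hoxc4, Hoxc5 and Hoxc12 for colon against duodenum and Hoxc10 for colon against ileum, on these few counts. Hoxa2, in HoxA, had 9, 11 and 85 counts.

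**Figure D4:**
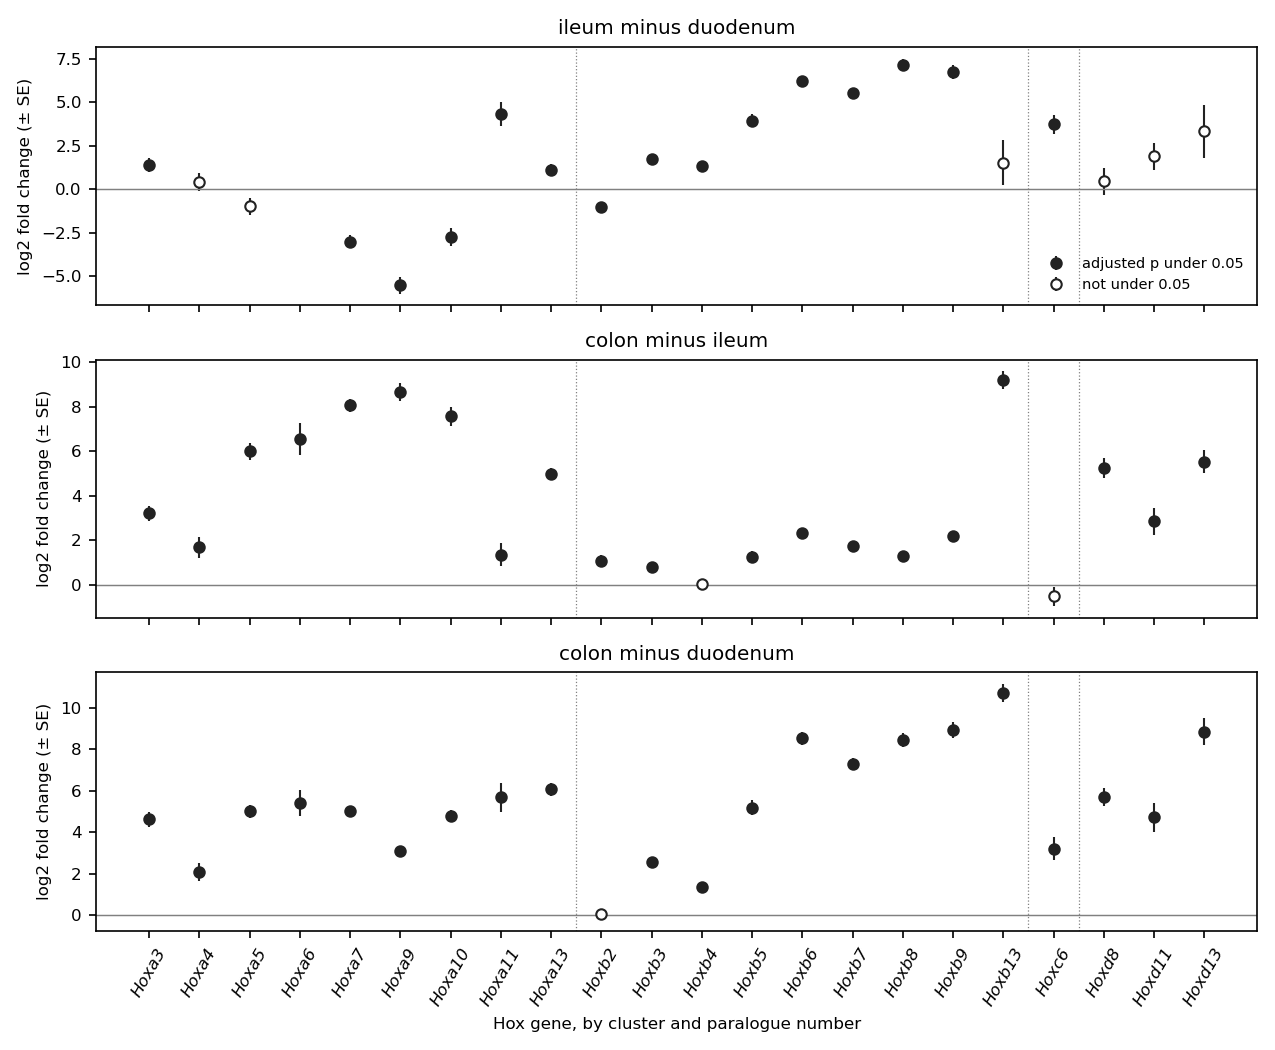
Log2 fold change with its SE from edgeR for the Hox genes that passed the filter, in order of cluster and paralogue number, for 3 region comparisons; filled points have an adjusted p under 0.05. Hoxa6 is not drawn for ileum minus duodenum, since 1 count in ileum gave no usable SE. The upper panel shows Hoxa7, Hoxa9 and Hoxa10 below 0 and Hoxb5 to Hoxb9 well above it.

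Fold change and place in the cluster ran together in HoxB. Across its 9 tested genes, Spearman's rho between paralogue number and log2 fold change was 0.933 for colon against duodenum, 0.817 for colon against ileum and 0.583 for ileum against duodenum. In HoxA, also with 9 genes, the values were 0.633, 0.133 and -0.03. Over all 22 they were 0.652, 0.518 and 0.145. These values describe genes measured in the same libraries, neighbouring in the genome and in part sharing exon bases, and carry no test. Within HoxA, Hoxa9 and Hoxa11 moved in opposite directions between duodenum and ileum, although they lie on either side of Hoxa10.

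Genes beside the clusters were examined from the 3 nearest protein-coding genes on each side, 24 in all, of which 22 were tested. In colon against duodenum 8 were higher, 5 lower and 9 did not pass, beside 55% of all genes called, with a median log2 fold change of 0.04. The larger values lay next to group 13. Ttll6, a tubulin glutamylase gene beside Hoxb13, held 0.95 ± 0.633 (SD), 1.38 ± 1.49 and 13 ± 2.49 CPM in duodenum, ileum and colon, and was higher in colon than duodenum by 3.82 ± 0.34 (adjusted p = 1.23e-13). Evx1 and Evx2, homeobox genes beside Hoxa13 and Hoxd13, had 89 and 136 counts in colon against 3 and 2 in duodenum. Within the clusters, 46 other annotated genes were listed and 6 were tested. Of these, 5 were higher in colon than duodenum, beside 26.8% of all genes. The filter was set over all libraries, so genes high in colon alone could be among the 6. Gm53, a long noncoding RNA between Hoxb13 and Hoxb9, climbed like Hoxb9, with 0.378 ± 0.304, 7.14 ± 3.93 and 40.6 ± 5.18 CPM. Hoxa11os averaged 0.0223, 0.0437 and 8.25 CPM, unlike Hoxa11, for which ileum was above duodenum. Which strand the counts used was not given in the sources used here.

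Homeobox genes that act with or above Hox genes were listed separately. Of 9 TALE cofactors (Pbx, Meis and Pknox families) 8 were tested, and in colon against duodenum 1 was higher, 3 were lower and 4 did not pass, beside 55% of all genes called. Pknox2 averaged 0.0741, 0.509 and 4.59 CPM in duodenum, ileum and colon. Meis2 ran the other way at 10.7, 0.318 and 0.439 CPM, with a log2 fold change of -4.76 ± 0.44 (adjusted p = 3.61e-13), as did Pbx3 at 27.5, 7.36 and 3.66 CPM. Ileum against duodenum gave 2 higher and 3 lower for this list, beside 33.8% of all genes called.

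Among the 6 ParaHox genes, 3 were tested. Cdx1, a regulator of intestinal and axial identity, averaged 65.7 ± 9.23 CPM (SD) in duodenum, 122.9 ± 19.4 in ileum and 180.9 ± 33.6 in colon, and was higher in colon than duodenum by 1.46 ± 0.08 on the log2 scale (adjusted p = 7.82e-21). Cdx2 held 118.6, 148.1 and 145.6 CPM, a log2 fold change of 0.28 ± 0.06 for colon against duodenum (adjusted p = 5.83e-05). Pdx1, which marks duodenum and pancreas, fell from 58.2 ± 22.7 CPM in duodenum to 6.71 ± 3.4 in ileum and 1.03 ± 0.943 in colon (log2 fold change -5.87 ± 0.30 for colon against duodenum, adjusted p = 1.92e-21). Between ileum and duodenum, where Hoxa7, Hoxa9 and Hoxa10 were lower, Cdx1 was higher by 0.91 ± 0.08 (adjusted p = 6.47e-13). A relation of Cdx1 to these genes was not tested.

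Of 12 chromatin regulators known to act on Hox clusters, all tested, 2 were higher and 7 lower in colon than duodenum, beside 26.8% and 28.3% of all genes, with a median log2 fold change of -0.32. Cbx7, a Polycomb reader, averaged 22.5, 29.4 and 40.3 CPM, and Ezh1, a Polycomb methyltransferase, 40.0, 39.2 and 47.7 CPM. The largest decreases were of Cbx2 (9.61, 10.7 and 4.72 CPM; log2 fold change -1.04 ± 0.16, adjusted p = 1.38e-07), Suz12 (68.1, 57.3 and 38.1 CPM) and Bmi1 (49.3, 38.95 and 32.03 CPM). Of 5 further genes known to limit or time Hox expression 4 were tested. Gdf11, a signal of trunk to tail transition, was higher in colon (17.3 CPM against 8.35 in duodenum, log2 fold change 1.09 ± 0.20, adjusted p = 6.34e-06), and Gmnn, Nr6a1 and Zbtb16 were lower.

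Surgery groups were compared next. On log2(CPM + 0.5) of the 22 tested genes, the nearest library was of the same region for 48 of 48 libraries. With region differences as large as those above, that count says nothing of surgery. The nearest library was of the same surgery group for 16 of 48, which was not tested. Summed Hox RNA in colon was 612.6 ± 85.5 CPM (SD, n = 5) in S_al, 612.6 ± 62.8 (n = 5) in S_wm and 527.6 ± 59.8 (n = 6) in VSG. In ileum the sums were 94.2 ± 31.97, 113.4 ± 46.8 and 92.2 ± 35.3 CPM, and in duodenum 14.1 ± 3.51, 14.9 ± 6.42 and 18.02 ± 3.41 CPM. The libraries of the 3 groups overlapped in each region. In colon they ran from 530.1 to 749.0 CPM in S_al, 535.5 to 705.2 in S_wm and 466.5 to 613.3 in VSG, and the lower mean of VSG was not tested.

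No Hox gene passed the adjusted threshold in any surgery comparison by edgeR. VSG against S_al gave 0 of 22 over the mean of the regions and in duodenum, ileum and colon, beside 0% of all genes in each. VSG against S_wm gave 0 of 22, beside 0.245% of all genes over the mean of regions, 0.225% in duodenum, 0.0463% in ileum and 0.0595% in colon. S_wm against S_al also gave 0, beside 0.0529% over the mean, 0% in duodenum and ileum and 0.0132% in colon, and a test of surgery effects differing by region gave 0 beside 0%. Many of the 22 were near absent from the small intestine: with only the libraries of each contrast, 3 to 5 Hox genes were tested in duodenum, 7 to 9 in ileum and 20 to 21 in colon, again with 0 passing, so these counts say little of the small intestine. At an unadjusted p under 0.05 the counts were 4, 3, 2 and 0 for VSG against S_al (mean, duodenum, ileum, colon), 4, 4, 4 and 0 for VSG against S_wm, 4, 4, 3 and 1 for S_wm against S_al, and 5 for the test across regions. Over all genes the shares at that threshold were 5.53, 2.45, 6.16 and 6.28% for VSG against S_al, 9.92, 8.71, 6.38 and 3.65% for VSG against S_wm, 6.39, 6.55, 7.85 and 3.66% for S_wm against S_al, and 4.90% for the test across regions. DESeq2 gave 2, Hoxb7 and Hoxd8, for VSG against S_wm over the mean of regions, 1, Hoxb7, for the same contrast in duodenum, and 0 in the rest.

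The lowest p in a surgery comparison was that of Hoxd8 for VSG against S_wm over the mean of regions (log2 fold change -1.82 ± 0.47, adjusted p = 0.0833). Its levels were 0.0349 CPM in VSG, 0.254 in S_wm and 0.0737 in S_al in duodenum, 0.0132, 0.401 and 0.170 in ileum, and 6.69, 5.48 and 4.70 in colon. The groups overlapped in every region, and the direction in colon was opposite to that in the small intestine. The gene also led in ileum alone (log2 fold change -3.42 ± 0.97, adjusted p = 0.326) and in the test across regions (adjusted p = 1). Hoxb7 led in duodenum (log2 fold change -2.57 ± 0.76, adjusted p = 0.117), on 0.0976 ± 0.0819 CPM (SD) in VSG and 0.681 ± 0.705 in S_wm, and Hoxb13 in colon (-0.59 ± 0.37, adjusted p = 1).

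For VSG against S_al the leading genes were Hoxa4 over the mean (log2 fold change 1.31 ± 0.48, adjusted p = 0.692), Hoxa6 in duodenum (3.44 ± 1.28, adjusted p = 1, on 10 counts in all duodenum libraries), Hoxb13 in ileum (-3.77 ± 1.61, adjusted p = 0.759) and Hoxb2 in colon (-0.76 ± 0.42, adjusted p = 0.788). For S_wm against S_al they were Hoxa4 over the mean (1.52 ± 0.49, adjusted p = 0.566), Hoxb7 in duodenum (1.88 ± 0.71, adjusted p = 0.617), Hoxb2 in ileum (1.24 ± 0.48, adjusted p = 0.538) and Hoxb2 in colon (-0.99 ± 0.44, adjusted p = 1). Among the 13 Hox genes with a mean of at least 10 CPM in colon, the log2 fold change ran from -0.55 (Hoxd13) to 0.06 (Hoxa3) for VSG against S_al and from -0.82 (Hoxd13) to 0.12 (Hoxb3) for VSG against S_wm, with SEs of 0.29 to 0.59. For VSG against S_al 12 of the 13 estimates were below 0 (median -0.23), and for VSG against S_wm 9 of 13 (median -0.14), with none past the threshold. The 13 genes were measured in the same libraries and many are neighbours in the genome, so their signs are not independent and carry no test.

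The colon samples joined colon and rectum, and the group 13 genes varied among them. Over the 16 colon libraries, on log2(CPM + 0.5), Hoxa13 and Hoxb13 gave Pearson r = 0.707 (permutation p = 8.20e-04, adjusted 0.00123) and Spearman rho = 0.829 (permutation p = 2.60e-04, adjusted 7.80e-04). Hoxb13 and Hoxd13 gave r = 0.893 (permutation p = 4.00e-05, adjusted 1.20e-04) and rho = 0.771 (permutation p = 7.80e-04, adjusted 0.00117). Hoxa13 and Hoxd13 gave r = 0.482 (permutation p = 0.0284, adjusted 0.0284) and rho = 0.562 (permutation p = 0.0259, adjusted 0.0259). The 3 pairs formed 1 family with 100000 resamples each, two-sided.

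Without the 2 libraries farthest from the median of the first gene, r was 0.888 for Hoxa13 with Hoxb13 (permutation p = 1e-05, the smallest these resamples can give), 0.657 for Hoxb13 with Hoxd13 and 0.744 for Hoxa13 with Hoxd13. Leaving out VSG mouse 30 alone, an alternative added after seeing the data, r was 0.722, 0.751 and 0.419, and the last no longer passed (permutation p = 0.118), whereas its Spearman rho of 0.536 did (adjusted permutation p = 0.0417). On deviations from the surgery group means r was 0.679, 0.892 and 0.454, the last with permutation p = 0.0728 but a rho of 0.559 (adjusted permutation p = 0.0267). Libraries with the second index D504 numbered 11 and gave r = 0.698, 0.716 and 0.311, the last with permutation p = 0.349. The other second indexes held too few colon libraries for a value.

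**Figure D5:**
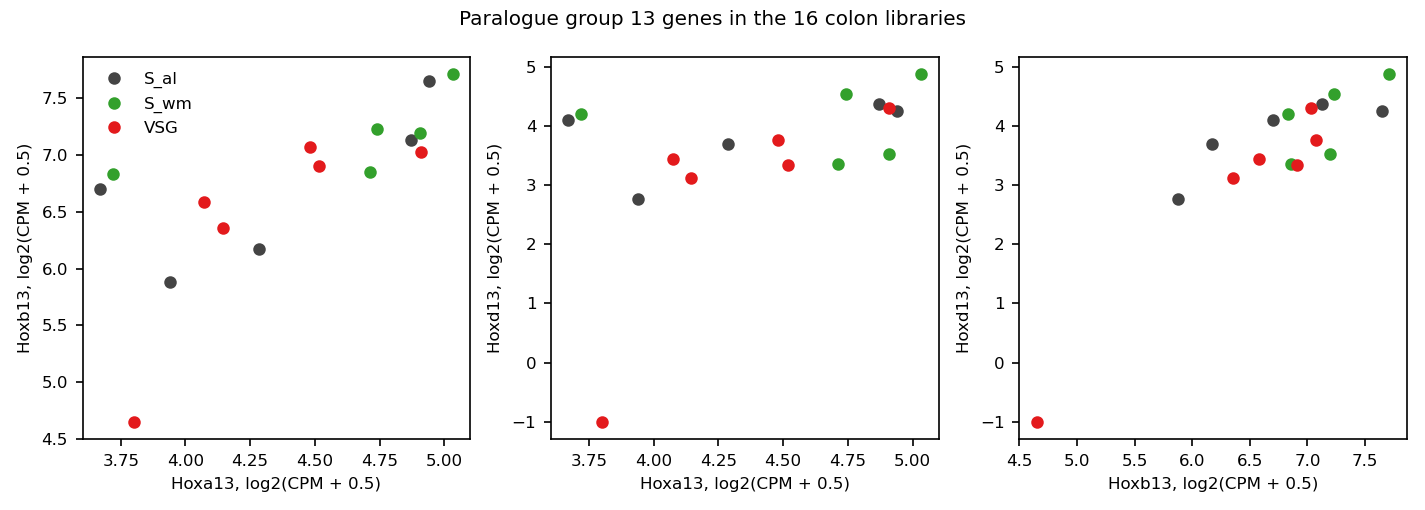
Levels of Hoxa13, Hoxb13 and Hoxd13, as log2(CPM + 0.5), plotted pair by pair over the 16 colon libraries, coloured by surgery group. Libraries high in one gene tend to be high in the others, and 1 VSG library, of mouse 30, sits apart with Hoxd13 at 0 and the lowest Hoxb13.

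The colon library of VSG mouse 30 held 24.7 CPM of Hoxb13, the lowest of 16, and no Hoxd13. Its Hoxa11, at 6.81 CPM, was matched by S_wm mouse 31, while Hoxb9 at 120.0 CPM and Hoxa7 at 62.3 CPM lay within the range of the others. Its ileum library held 4.71 CPM of Hoxd13, the highest of 16, and the single 0 for Hoxb2 among the ileum libraries.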

How the data were processed

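The authors sorted fluorescent cells, prepared libraries from total RNA with a stranded SMARTer pico kit, sequenced single 50-base reads and aligned them with STAR 2.5.1 to GRCm38, as the labels and methods give it; the deposited values are raw counts per Ensembl gene, with no normalization. Symbols, exon lengths and positions came from GENCODE M21, which matched 53360 of 53465 genes. Members, gene lists and tests were chosen with earlier results of these data known. Named genes were all Hox members, with values per library for the leading gene of each cluster and region, group 13, the 3 largest changes in each direction per region comparison and the lowest p per surgery comparison; from other lists, up to 3 called genes in each direction for colon against duodenum. Some items that this rule names are not reported here.

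Counts were tested with edgeR 4.0.16 (R 4.3.3; filterByExpr, TMM scaling, 9 group means, robust quasi-likelihood fit, Benjamini-Hochberg over 15126 genes, adjusted p under 0.05). CPM used TMM effective library sizes. DESeq2 1.42.0 and limma 3.58.1 (voom) served as alternatives, and SciPy gave exact intervals (95%, counting error only) and permutation tests. Promoter windows were searched as letters.

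On simulated counts for 15126 genes, colon against duodenum recovered 40, 66, 98 and 100% of genes changed by 0.5, 1, 2 and 3 on the log2 scale, and VSG against S_al over the mean of regions 56, 78, 96 and 96%. Each simulated gene had the same baseline in every region, its mean over all libraries, and libraries were drawn independently. Many Hox genes were near absent from the small intestine, so these shares do not carry over to the Hox genes. There was 1 library per mouse and region. Mouse numbers pair the libraries of different regions, since they mark the same animal: 15 of 17 mice gave all 3 regions. Deviations of libraries of 1 mouse correlated with a median of 0.105 over 46 pairs. Of 105 pairs of libraries within groups none was a duplicate (lowest chi-square per gene 8.78).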

Additional observations from a re-analysis of the deposited data

Results flagged for a closer look

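Within the 9 combinations of region and surgery, 72 sets of 5 or 6 libraries with a mean of at least 1 CPM were screened with Dixon's criterion for 1 library standing apart, over the summed Hox level and 12 Hox genes. It gave 11 marks, with the colon library of S_al mouse 24 marked for both Hoxb2 and Hoxc6. Chance marks about 1 in 20 sets of normally distributed values. The screen used CPM, often on few counts, for which that rate need not hold, so the marks show no excess over chance. In HoxA, Hoxa9 was high in the duodenum of S_wm mouse 31 (2.498 CPM, others 0.818 to 1.09) and low in the colon of S_wm mouse 21 (8.35 CPM, others 18.5 to 20.9). Hoxa10 was high in the colon of S_al mouse 13 (35.7 CPM, others 18.1 to 21.3). Hoxa11 was high in the ileum of S_wm mouse 16 (6.25 CPM, others 0.160 to 0.926) and in the colon of VSG mouse 30 (6.81 CPM, others 1.60 to 3.35).

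Hoxb2 was high in the ileum of S_al mouse 32 (2.65 CPM, others 0.957 to 1.41) and low in the colon of S_al mouse 24 (2.88 CPM, others 6.33 to 7.48). Hoxc6 was high in 3 sets, at 6.39 CPM in the ileum of S_al mouse 13, 3.49 CPM in the ileum of VSG mouse 11 and 3.65 CPM in the colon of S_al mouse 24. Hoxd13 was high in the ileum of VSG mouse 30 (4.71 CPM, others 0 to 1.71). What set these libraries apart was not tested.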

How the results depend on the processing

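The counts of Hox genes called in the region comparisons were 15, 21 and 20 for ileum against duodenum, colon against duodenum and colon against ileum. With the mouse as a fixed replicate block in edgeR they were the same, and with limma voom and a random replicate block they were 14, 21 and 20; the random block left the surgery comparisons at 0, and the fixed block cannot be used for them because surgery lies between mice. Without the filter on low counts, 39 Hox genes were tested and the 3 comparisons gave 20, 33 and 26 in the same order. With the second library index, which followed region, as a covariate, the counts were 13, 17 and 20. With only the libraries compared they were 13 (of 13 tested), 21 and 20, where a gene could pass the filter through 1 of the 2 regions alone. Shares of all genes called under these settings are not reported here, so the counts cannot be set beside a background. Leaving out each mouse in turn gave 14 to 16, 21 to 21 and 19 to 20. In the surgery comparisons, VSG against S_wm over the mean of regions gave 2 with DESeq2 and 0 to 1 with a mouse left out (1 without mouse 27, Hoxd8), and in duodenum 1 with DESeq2 and 0 to 1 with a mouse left out (1 without mouse 31, Hoxa3); the cause was not tested. The correlation of Hoxa13 and Hoxd13 in colon no longer passed by Pearson's r on deviations from the surgery group means (r = 0.454), without VSG mouse 30 (r = 0.419) or in libraries of index D504 (r = 0.311); Spearman's rho passed in the first and second of these (0.559 and 0.536).

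Signs turned only for genes that had not passed. For ileum against duodenum they were Hoxa6 under voom (0.057), Hoxd11 with the index covariate (-1.669) and Hoxa4 with the index covariate (-0.44); without 1 mouse Hoxa4 ran from -0.17 to 0.71. For colon against duodenum Hoxb2 turned without the duodenum library of mouse 27 (-0.023), chosen after seeing the data, and ran from -0.018 to 0.22 without 1 mouse. For colon against ileum Hoxb4 turned under voom (-0.000586) and without the crossed libraries of mouse 12 (-0.0136), and ran from -0.047 to 0.072 without 1 mouse. DESeq2 added Hoxd13 for ileum against duodenum. Levels under about 1 CPM rest on few counts. Shared exon bases limit Hoxb3, Hoxd3, Hoxd4 and Hoxa11 most, and made up 27.3% of Hoxb2, 27.1% of Hoxa3 and 20.4% of Hoxa7.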
